A study of Mus musculus with 12 samples.

Results

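The yolk sac response to ectopic Norrin at embryonic day 10.5 (E10.5) is described here from 6 of the 12 arrays of the series: 3 of Norrin yolk sac and 3 of wild type yolk sac at the same stage, chosen by their titles. The Norrin group came from Z/Norrin mice, in which Norrin was expressed ectopically from a conditional over-expression allele, and the control group was wild type. Both had a mixed C57Bl6/129 background and mixed sex, and every sample was total RNA from the pooled yolk sacs of 3 to 5 embryos. The labels name neither the Cre line nor the cells or the day in which Norrin was switched on. The other 6 arrays are the same 2 genotypes at E8.5. Their values helped to estimate the spread behind every p-value and to choose the probe set of each gene. Their effects are given only where the stages are set side by side. Effects are differences of log2 expression, Norrin mean minus wild type mean, so that an effect of 1 is a 2-fold rise, and they were tested by limma over 18193 genes. A gene was called higher or lower, and is said to have risen or fallen, where its Benjamini-Hochberg adjusted p was under 0.05.

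At this age the mouse visceral yolk sac has an outer epithelium of visceral endoderm, which takes up and digests maternal material, makes plasma proteins and lipoproteins and does the work of a liver and gut for the embryo. Under it lie mesoderm, capillaries and the blood islands that supply primitive red cells. A separate parietal endoderm lines the outer wall of the yolk cavity and lays down a thick basement membrane. Norrin, the product of Ndp, is a secreted protein that binds Frizzled4 with the coreceptors Lrp5 or Lrp6 and the tetraspanin Tspan12 and activates beta-catenin signalling, and it is best known for its part in retinal vessels.

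Arrays of 1 group correlated across genes at r = 0.983 to 0.992 and arrays of different groups at 0.973 to 0.982. The median SD of a gene over the 3 pools was 0.15 in wild type and 0.14 in Norrin, and the median standard error of an effect was 0.16. Norrin replicates 2 and 3 stood apart by genes of neighbouring tissue. The trophoblast gene Tpbpa stood at 11.90 in Norrin replicate 2 and at 5.63 to 6.55 in the other 5 pools, and the trophoblast prolactin Prl8a9 at 10.44 against 4.25 to 4.32. In Norrin replicate 3 the granzyme Gzmd, a product of uterine natural killer cells, stood at 7.76 against 3.26 to 3.90 in the others. Measured from the mean of the wild type pools, 23 trophoblast genes had a median of 1.08 in Norrin replicate 2 and of -0.08 to 0.08 elsewhere. The 23 decidual genes had a median of 0.76 in Norrin replicate 3 and of 0.00 to 0.17 elsewhere. Without Norrin replicate 2 limma called 580 genes and without Norrin replicate 3 it called 353. Ndp itself lay at 4.55, 4.47 and 4.45 in wild type and 4.47, 4.55 and 4.45 in Norrin; whether its probe set covers the transgene is not known, so it checks nothing about the labels. For Fzd4 the effect was -0.07 (SE 0.24), for Lrp5 -0.48 (SE 0.14), for Lrp6 -0.14 (SE 0.19) and for Tspan12 0.07 (SE 0.40), and none of these 5 was called (lowest adjusted p 0.1, for Lrp5; 0.013 with pools of the same replicate number as a block, here called the blocked fit).

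In all 741 of 18193 genes were called (4.07%), 337 higher (1.85%) and 404 lower (2.22%), and 2555 had an unadjusted p under 0.05. The 3 Norrin pools did not overlap the 3 wild type pools in 22.9% of all genes tested and in each of the 741. The median fold was 1.89 among higher and 1.97 among lower genes, with 23 higher and 37 lower genes changed at least 4-fold. The blocked fit called 2400 genes (13.2%), 1163 higher and 1237 lower, all 741 among them. The count fell to 410 without Norrin replicate 1, 435 without wild type replicate 2 and 477 without wild type replicate 3. In each of the 6 fits that left out 1 array, 288 of the 741 genes were called, 122 higher and 166 lower; these are called stable here, and genes named below are stable unless their losses are given, with Norrin 1 standing for Norrin replicate 1 and so on.

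**Figure D1:**
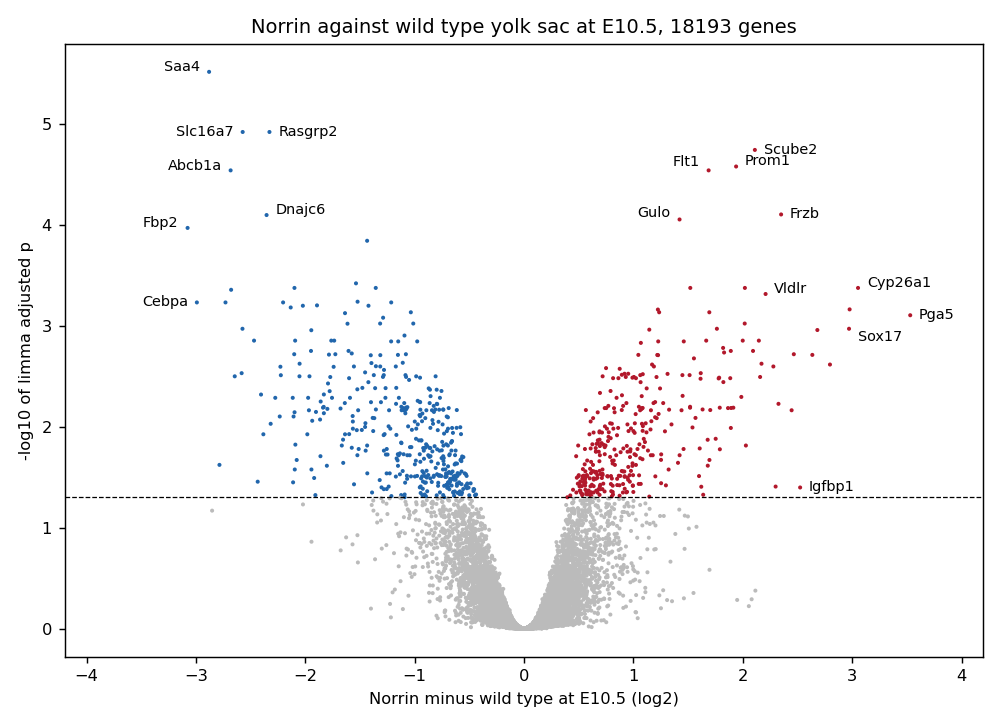
Each point is 1 of 18193 genes, with the Norrin minus wild type difference at E10.5 (log2) on the x axis and -log10 of the limma adjusted p on the y axis; the dashed line is the threshold of 0.05, red points are the 337 genes called higher and blue points the 404 called lower. Saa4, Slc16a7, Rasgrp2 and Abcb1a lead the lower genes and Scube2, Prom1, Flt1 and Frzb the higher ones.

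The regulators of the endoderm did not move as a group. Of 36 measured endoderm transcription factors 2 rose and 4 fell (5 and 8 in the blocked fit), with a median effect of 0.00. The shares were 5.56% and 11.1%, against 1.85% and 2.22% of all genes. Cebpa, which drives hepatic metabolic genes, stood at 10.78, 11.01 and 10.51 in the wild type pools and 7.43, 8.33 and 7.57 in the Norrin pools, a 7.95-fold fall (adjusted p = 0.000587). The bile acid receptor Nr1h4 stood at 8.68, 8.53 and 8.26 in wild type and 6.34, 6.95 and 6.12 in Norrin, 4.06-fold lower (adjusted p = 0.000633). In both genes the lowest wild type pool lay above the highest Norrin pool by more than 1 log2 unit. The nuclear receptor Hnf4a, a central hepatocyte regulator, fell by 0.71 and the MiT family factor Tfec by 1.26. Sox17, an endoderm and arterial factor, stood at 7.55 ± 0.26 in wild type and 10.52 ± 0.47 in Norrin (SD, n = 3; 7.84-fold higher, adjusted p = 0.00107), and Klf4, a factor of epithelia and of early response, rose by 2.00 (SE 0.25). The second probe set of Klf4 gave 1.37. The pioneer factors Foxa1 and Foxa2 had effects of -0.10 (SE 0.19) and 0.00 (SE 0.15), and Gata4 and Gata6 had 0.91 (SE 0.23) and 0.49 (SE 0.20), both uncalled (adjusted p 0.0518 and 0.272) but called in the blocked fit (0.00199 and 0.0452). These 4 genes, like others given below with values under no call, were chosen after their values were seen. With 1 array left out, the call was lost for Hnf4a (without Norrin 2 or wild type 1, adjusted p up to 0.0586) and Tfec (without Norrin 1, 2 or wild type 1, 2, adjusted p up to 0.111).

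Plasma protein genes of the visceral endoderm were lower where they changed, and 19.2% of them fell, against 2.22% of all genes. Of 52 measured, 0 rose and 10 fell (0 and 23 in the blocked fit; 23 at an unadjusted p under 0.05 in either direction), 6 of the 10 were stable, and the median effect was -0.43 against -0.004 over all genes. Around the wild type mean the list median lay at 0.01, 0.26 and -0.31 in wild type replicates 1, 2 and 3. In Norrin replicates 1, 2 and 3 it lay at -0.44, -0.41 and -0.51. Saa4, a constitutive serum amyloid, stood at 9.01, 9.15 and 8.78 in wild type and 5.96, 6.22 and 6.13 in Norrin, 7.36-fold lower with the smallest adjusted p of the comparison (3.07e-06); its second probe set gave -1.79. Plg, the plasmin precursor, stood at 12.02, 12.15 and 11.32 and 9.57, 10.42 and 9.59 (3.93-fold lower, adjusted p = 0.00516). The antitrypsin gene Serpina1c fell by 2.65, heparin cofactor Serpind1 by 2.11, clotting factor subunit F13b by 2.27, and the precursor of alpha-1-microglobulin Ambp by 1.40. Serpina1c belongs to a family of near-identical genes, so its signal may be shared with its copies. The complement regulator Cfi fell by 2.09 and the hyaluronan-binding chains Itih2, Itih4 and Itih1 by 1.57, 1.14 and 0.65. The 2 proteins for which the yolk sac is best known had small effects: Afp stood at 14.71 ± 0.06 in wild type and 14.67 ± 0.15 in Norrin (SD, n = 3) and Ttr at 14.38 ± 0.11 and 14.34 ± 0.16. Both lie near the top of the scale (the highest value on the 6 arrays was 14.78), where a change can be understated. Alb was spread widely in wild type (10.24 ± 2.26, against 7.39 ± 0.54 in Norrin; effect -2.85, adjusted p 0.0675, or 0.00605 in the blocked fit). Fits that left out 1 array ended the call for Cfi (without Norrin 1, 3 or wild type 1, 2, adjusted p up to 0.0645), Itih1 (without Norrin 1, 2, 3 or wild type 1, 2, adjusted p up to 0.177), Itih2 (without Norrin 1, adjusted p 0.0515) and Itih4 (without Norrin 1, 2, 3 or wild type 1, 2, adjusted p up to 0.122).

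Lipoprotein genes followed the same direction. Of 28 measured, 0 rose and 7 fell (12 in the blocked fit), 5 of them stable, with a median of -0.36. The small apolipoprotein Apoc2, which activates lipoprotein lipase, stood at 13.63, 13.32 and 13.31 in wild type and 12.41, 11.99 and 12.21 in Norrin (2.32-fold lower, adjusted p = 0.00143). Its chromosomal neighbour Apoc1 fell by 2.41 (SE 0.39), Apom, a carrier of sphingosine phosphate, by 1.40 and the triglyceride-making acyltransferase Mogat2 by 1.11. Apoa1, the main protein of high density lipoprotein, fell by 0.78 from the top of the scale (14.37 ± 0.14 to 13.59 ± 0.18; SD, n = 3), and 3 other probe sets gave -0.85 to -0.95. Apoa4 fell by 0.94 and the lipoprotein receptor Scarb1 by 0.74. Apob, the core protein of chylomicrons, had an effect of -0.74 (adjusted p 0.0693; 0.000898 in the blocked fit) and Apoe -0.20 (SE 0.13). Not stable were Apoa4 (without Norrin 3 or wild type 2, adjusted p up to 0.0617) and Scarb1 (without Norrin 2, 3 or wild type 1, 3, adjusted p up to 0.127).

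Of 34 endocytic and lysosomal genes of the epithelium 0 rose and 1 fell (0 and 3 in the blocked fit), a share of 2.94% that is near the 2.22% of all genes. The fallen member was the neonatal Fc receptor Fcgrt, which carries maternal antibody (11.60 ± 0.36 in wild type and 9.74 ± 0.43 in Norrin; SD, n = 3; adjusted p = 0.0195). The median was -0.06 and 4 genes had an unadjusted p under 0.05. The receptor partners Cubn, Amn and Dab2 had effects of -0.24 (SE 0.13), 0.08 (SE 0.15) and 0.20 (SE 0.17), and Lrp2, the large scavenger receptor megalin, -0.89 (SE 0.24) (adjusted p 0.0662; 0.00575 in the blocked fit). Of 46 brush border and intestinal genes 1 rose and 4 fell (5 and 8 in the blocked fit). The shares were 2.17% and 8.7%, against 1.85% and 2.22% of all genes. The chloride channel regulator Clca1 fell by 2.79, collectrin (Cltrn), which brings amino acid carriers to the membrane, by 2.23, keratin Krt20 by 1.66 and the actin-linked protein Eps8l3 by 1.52, while the peptidase Mme rose by 0.65. The second probe set of Clca1 gave -0.18. General epithelial genes had effects near 0, at 0.14 (SE 0.13) for keratin Krt8 and 0.02 (SE 0.26) for Epcam. A pool with fewer cells of a type and a pool with less RNA per cell cannot be told apart in these arrays. The call depended on single arrays for Fcgrt (without Norrin 1, 3 or wild type 1, 2, adjusted p up to 0.0949), Clca1 (without Norrin 1, 3 or wild type 1, 2, 3, adjusted p up to 0.0965), Krt20 (without Norrin 1, 3 or wild type 2, adjusted p up to 0.0686), Eps8l3 (without Norrin 1, 3 or wild type 2, adjusted p up to 0.0912) and Mme (without Norrin 1, 2 or wild type 1, 2, 3, adjusted p up to 0.0966).

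**Figure D2:**
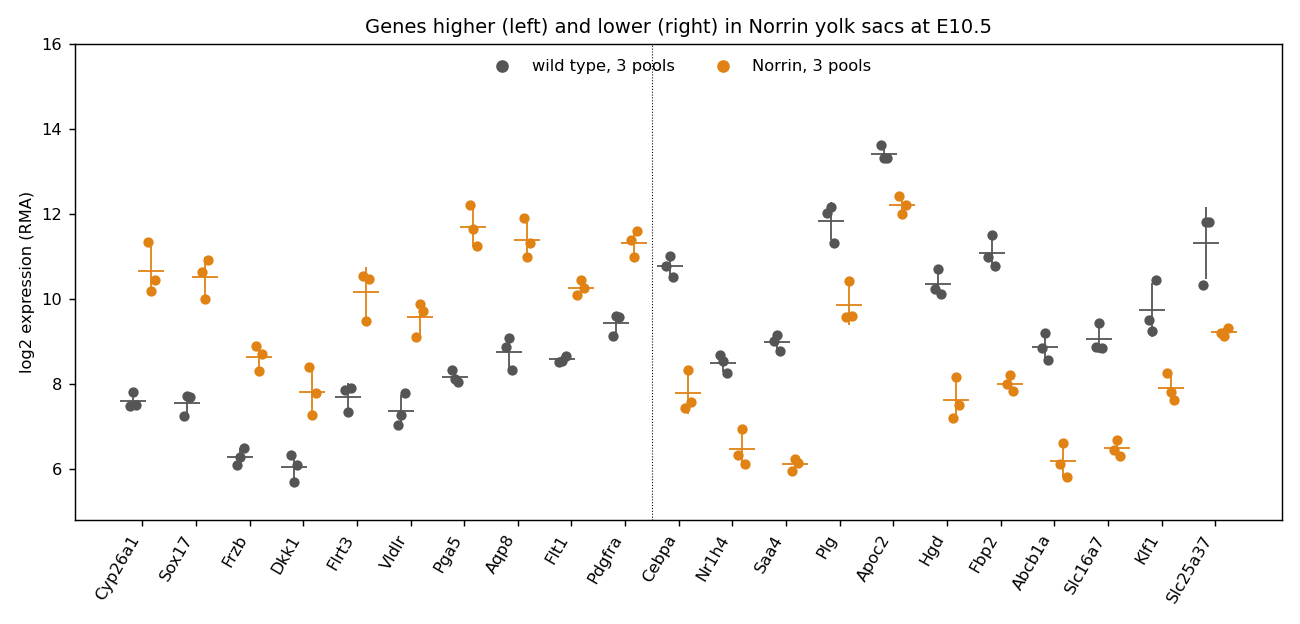
Log2 expression (y axis) of 21 genes in each of the 3 wild type (grey) and 3 Norrin (orange) pools at E10.5; points are pools, the horizontal mark is the mean and the vertical line 1 SD. The 10 genes to the left of the dotted line were higher and the 11 to its right lower in Norrin. The groups did not overlap in any of them, as in each of the 741 called genes. The wild type pools of Slc25a37 and Klf1 were the most spread of the lower genes.

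The enzymes of amino acid breakdown that passed the test fell. They made up 28.6% and then 11.9% of the lists below, against 2.22% of all genes. All 14 measured genes of phenylalanine, tyrosine and tryptophan breakdown had a negative effect (median -0.41), and 4 fell (9 in the blocked fit), 3 of them stable. Hgd, which opens the ring of homogentisate in tyrosine breakdown, stood at 10.23, 10.70 and 10.11 in wild type and 7.19, 8.17 and 7.49 in Norrin (6.63-fold lower, adjusted p = 0.000587). A second probe set of Hgd gave -0.13. Haao stood at 10.30, 10.22 and 9.79 and 8.08, 8.33 and 8.38 (3.58-fold lower), and Kmo and Kynu fell by 1.28 and 1.04. A second probe set of Kynu gave 0.03. Kmo, Kynu and Haao act one after another in the kynurenine route from tryptophan to NAD. Of 42 other genes of amino acid breakdown 0 rose and 5 fell (2 and 13 in the blocked fit), with a median of -0.23. Bhmt2, a methionine-making methyltransferase, fell by 1.57 (SE 0.29), and Amdhd1 and Ftcd, which act in histidine breakdown, by 1.12 and 1.08. Sardh and Hibch fell by 0.73 and 0.67. Outside the lists, Aass, the first enzyme of lysine breakdown, stood at 11.13, 11.03 and 11.29 and 8.92, 9.66 and 9.65, and Chdh, which oxidises choline, fell by 1.97; both were chosen after their values were seen. Calls were lost in the leave-one-out fits for Kynu (without Norrin 2 or wild type 1, 2, adjusted p up to 0.067), Sardh (without any 1 array, adjusted p up to 0.181) and Hibch (without Norrin 1, 2, 3 or wild type 1, 3, adjusted p up to 0.112).

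Fatty acid oxidation and synthesis were both lower where they changed. Of 35 oxidation genes 0 rose and 6 fell (1 and 16 in the blocked fit), 4 of them stable, with a median of -0.34. Cpt2, which loads fatty acids inside mitochondria, stood at 11.65, 11.65 and 11.52 in wild type and 10.75, 10.51 and 10.45 in Norrin (2.05-fold lower, adjusted p = 0.000735); its second probe set gave -0.43. The peroxisomal oxidase Acox2 fell by 1.83, the peroxisomal thiolase Acaa1b by 1.11, the dehydrogenases Acad11 and Acadl by 1.08 and 0.86, and the fatty acid importer Slc27a2 by 1.67. Second probe sets gave -1.17 for Acad11 and 0.01 for Acadl. The nuclear receptor Ppara, a regulator of such genes, had an effect of -0.85 (adjusted p 0.0709; 0.0093 in the blocked fit). Of 30 genes of fatty acid and triglyceride synthesis 3 fell (1 rose and 8 fell in the blocked fit): Mlxipl, a glucose-sensing transcription factor, by 1.10, the elongase Elovl6 by 0.69 and the acyltransferase Agpat2 by 0.67. Of 24 cholesterol genes 1 fell (9 in the blocked fit), lanosterol synthase Lss, by 0.95. That share of 4.17% is near the 2.22% of all genes, and the list median was -0.41. Leaving out 1 array ended the call of Slc27a2 (without Norrin 1 or wild type 1, 2, adjusted p up to 0.066), Acadl (without Norrin 3, adjusted p 0.0565), Agpat2 (without Norrin 1, 3 or wild type 1, adjusted p up to 0.0787) and Lss (without Norrin 1, 3 or wild type 1, 2, 3, adjusted p up to 0.209).

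Sugar metabolism split by direction. The risen shares were 20.8% for glycolysis and 4.35% for gluconeogenesis and glycogen, against 1.85% of all genes. The fallen shares were 4.17% and 8.7%, against 2.22% of all genes. Of 24 glycolysis genes 5 rose and 1 fell (10 and 2 in the blocked fit), with a median of 0.37. Hexokinase Hk2 stood at 8.60 ± 0.08 in wild type and 10.21 ± 0.18 in Norrin (SD, n = 3; 3.06-fold higher, adjusted p = 0.00334). The lactate carrier Slc16a1 rose by 1.16, Pfkfb3, which makes the activator of phosphofructokinase, by 1.60, the glucose carrier Slc2a1 by 0.95 and phosphofructokinase Pfkl by 0.83. A second probe set of Pfkfb3 gave 0.34. Pklr, the pyruvate kinase of liver and red cells, fell by 0.85. Of 23 genes of gluconeogenesis and glycogen 1 rose and 2 fell (1 and 3 in the blocked fit), with a median of 0.00. The muscle-type fructose bisphosphatase Fbp2 stood at 10.98, 11.50 and 10.77 in wild type and 7.99, 8.20 and 7.83 in Norrin, 8.44-fold lower (adjusted p = 0.000107) and the largest fall of the comparison by size. Liver glycogen phosphorylase Pygl fell by 2.12 (SE 0.35) and the glycogen-targeting subunit Ppp1r3c rose by 1.64. With 1 array left out, the call was lost for Pfkfb3 (without any 1 array, adjusted p up to 0.0998), Slc2a1 (without any 1 array, adjusted p up to 0.145), Pfkl (without Norrin 1, 2 or wild type 3, adjusted p up to 0.0757), Pklr (without Norrin 1, 2, 3 or wild type 2, 3, adjusted p up to 0.11) and Ppp1r3c (without Norrin 1, 2, 3 or wild type 1, 3, adjusted p up to 0.184).

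Detoxification genes and membrane carriers were mostly lower where they changed. The fallen shares of these lists ran from 5.71% (ABC transporters) to 17.6% (amino acid carriers), against 2.22% of all genes. Of 53 genes of xenobiotic and alcohol metabolism 1 rose and 8 fell (3 and 16 in the blocked fit), with a median of -0.27. Alcohol dehydrogenase Adh1 stood at 10.50, 11.08 and 10.43 in wild type and 7.99, 8.39 and 7.59 in Norrin (6.4-fold lower), and the aldehyde dehydrogenase Aldh1b1 and the glutathione transferases Gsta2 and Gstt3 fell by 2.32, 1.76 and 0.97. Cyp3a13 rose by 1.12. Of 46 carriers of organic ions, sugars and phosphate 0 rose and 7 fell (1 and 17 in the blocked fit), and all 7 were stable. The monocarboxylate carrier Slc16a7 stood at 8.87, 9.44 and 8.85 and 6.45, 6.68 and 6.31 (5.95-fold lower, adjusted p = 1.21e-05). The organic anion carriers Slc22a8 and Slc22a6 fell by 2.22 and 1.78, the cation carrier Slc22a2 by 1.06, the vitamin C carrier Slc23a1 by 1.42, the sulfate carrier Slc26a1 by 1.29 and the phosphate carrier Slc34a2 by 1.24. A second probe set of Slc22a8 gave -0.35. Gulo, the last enzyme of vitamin C synthesis, went the other way, from 5.00, 4.99 and 5.02 to 6.31, 6.66 and 6.31 (2.68-fold higher, adjusted p = 8.87e-05). Of 34 amino acid carriers 0 rose and 6 fell (3 and 11 in the blocked fit). Slc6a13, which takes up taurine and GABA, fell by 1.95 and the neutral amino acid carrier Slc43a2 by 1.05, both stable. Of 35 ABC transporters 0 rose and 2 fell (2 and 5 in the blocked fit), the drug efflux pumps Abcb1a (8.84, 9.19 and 8.55 in wild type, 6.11, 6.60 and 5.82 in Norrin, adjusted p = 2.9e-05) and Abcb1b, by 2.11. Second probe sets gave -3.07 for Abcb1a and -0.08 for Abcb1b. Water channels went both ways: of 12, Aqp8 rose 6.21-fold and Aqp1 fell 2.23-fold. Fits that left out 1 array ended the call for Abcb1b (without Norrin 1, 2 or wild type 1, 2, 3, adjusted p up to 0.135) and Aqp1 (without Norrin 1, 2 or wild type 2, 3, adjusted p up to 0.0791).

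Genes of basement membrane and parietal endoderm were higher where they changed, and 32.1% of them rose, against 1.85% of all genes. Of 28 measured 9 rose and 0 fell (15 and 0 in the blocked fit), 6 of them stable, with a median of 0.55. Collagen chain Col4a2 stood at 11.55, 11.65 and 11.44 in wild type and 12.95, 12.54 and 12.83 in Norrin (2.34-fold higher, adjusted p = 0.00143), and the collagen-modifying hydroxylases P4ha1 and Plod2 rose by 1.22 and 1.31. Fibulin Fbln1, nidogen Nid2, the partner collagen chain Col4a1 and vimentin (Vim) rose by 1.20, 1.04, 0.62 and 0.54. The parathyroid hormone receptor Pth1r, which marks parietal endoderm, stood at 9.59, 7.92 and 8.87 and 11.69, 10.76 and 11.27 (5.45-fold higher, adjusted p = 0.00685). Tissue plasminogen activator Plat, also a product of parietal endoderm, stood at 8.22, 7.65 and 8.48 and 10.04, 10.22 and 10.52 (4.43-fold higher), with -0.05 by its second probe set. So Plat rose while its substrate gene Plg, above, fell. The laminin chains Lama1, Lamb1 and Lamc1 had effects of 0.89 (SE 0.26), 0.79 (SE 0.22) and 0.26 (SE 0.14) and Sparc 0.45 (SE 0.23), none called. How much parietal endoderm each pool carried was not tested. Not stable were Nid2 (without Norrin 1, 3 or wild type 2, adjusted p up to 0.0872), Col4a1 (without Norrin 1, 3 or wild type 1, 2, 3, adjusted p up to 0.229) and Vim (without Norrin 1, 2, 3 or wild type 2, 3, adjusted p up to 0.142).

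Other genes with large effects belong to different functions. Pga5, a pepsinogen, stood at 8.34, 8.12 and 8.04 in wild type and 12.20, 11.65 and 11.24 in Norrin (11.6-fold higher, adjusted p = 0.000786). The serine protease Prss12 stood at 7.60 ± 0.35 and 10.58 ± 0.68 (SD, n = 3; 7.87-fold higher), and colipase (Clps), the cofactor of pancreatic lipase, rose by 2.16. The lipoprotein receptor Vldlr stood at 7.03, 7.26 and 7.78 and 9.10, 9.88 and 9.71 (4.62-fold higher, adjusted p = 0.000484); its 5 other probe sets ranged from 0.20 to 2.49. The stem and progenitor surface protein Prom1 rose by 1.94 and the secreted hedgehog-releasing protein Scube2 by 2.11. Neurofilament Nefl stood at 5.20, 4.51 and 5.31 and 7.58, 7.98 and 7.50, the only called member of 27 genes of neural tube and somite (3 rose and 1 fell in the blocked fit). That share of 3.7% is near the 1.85% of all genes. Among genes outside the lists, chosen after their values were seen, the stem cell and primitive endoderm factor Sall4 rose by 1.52, Sox4 by 1.45, the carboxypeptidase Cpm by 1.89 and Fxyd3, a small sodium pump subunit, by 1.86. Other probe sets of Sox4 ran from -0.60 to 1.29. On the lower side the iron-binding protein Meltf fell by 2.10, the connexin Gjb1 by 1.56, and the receptors for glucagon-like peptide and glucagon, Glp1r and Gcgr, by 1.37 and 1.00.

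**Figure D3:**
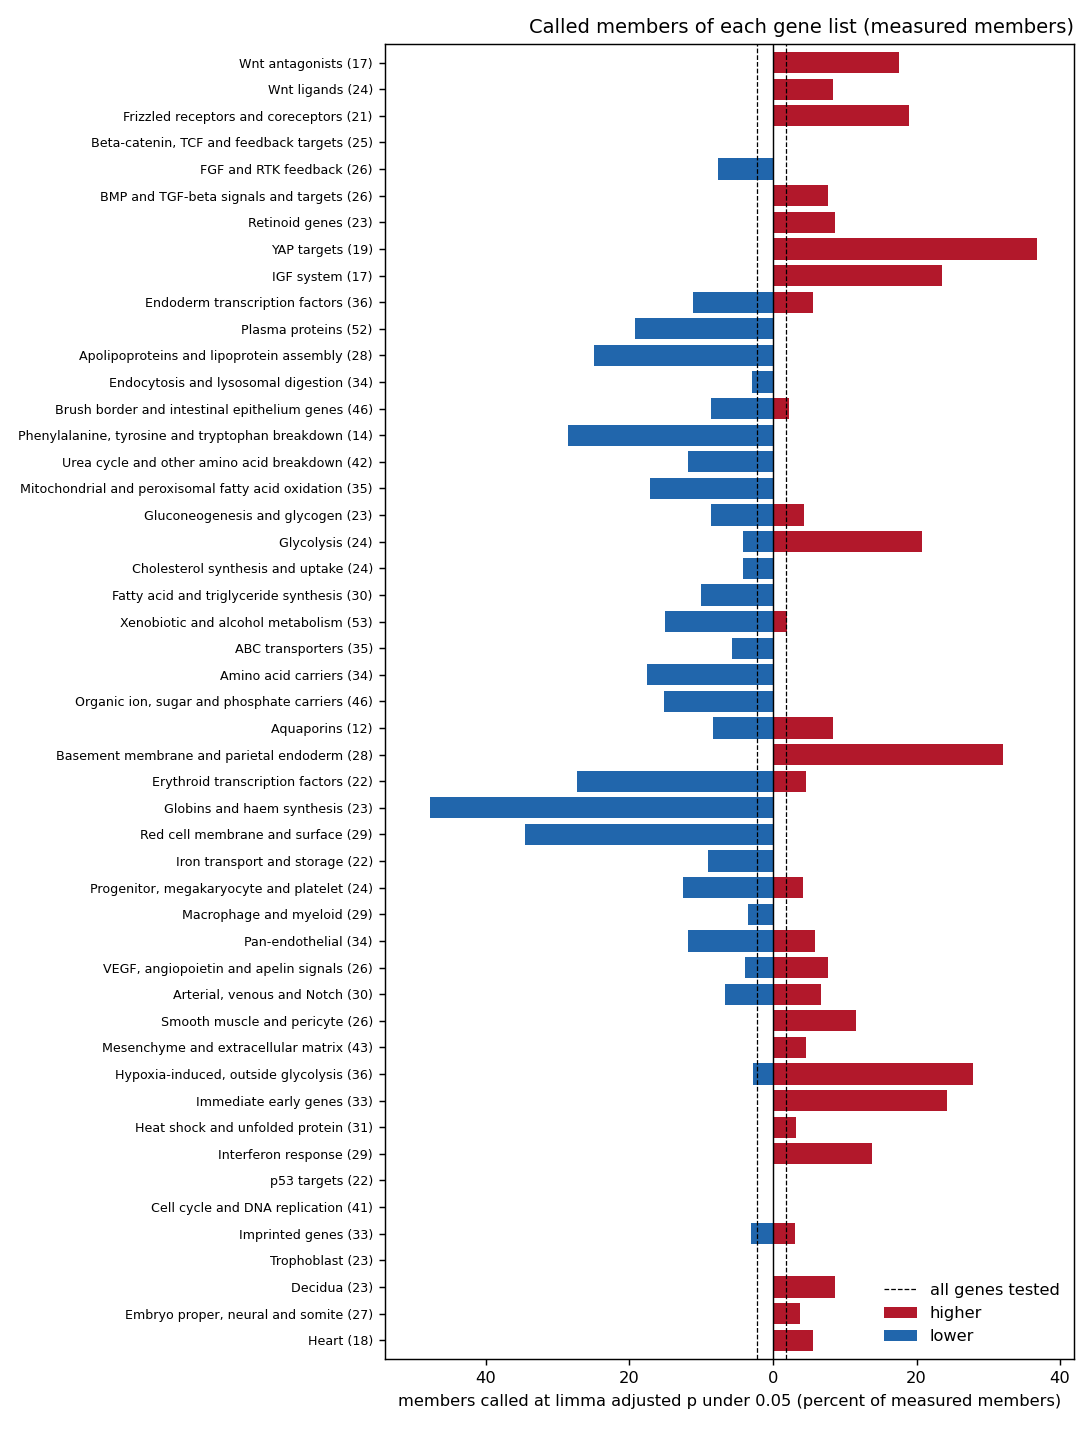
Percent of measured members called higher (red, to the right) or lower (blue, to the left) at a limma adjusted p under 0.05 for each of 49 gene lists, with the number of measured members in brackets; dashed lines mark the shares over all genes tested, 1.85% higher and 2.22% lower. The bars run furthest to the left for globins and haem synthesis and furthest to the right for YAP targets and basement membrane genes.

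Within the Wnt pathway the genes that passed were secreted antagonists, ligands and receptors, and they rose. Of 17 antagonists 3 rose, of 24 ligands and R-spondins 2 and of 21 Frizzleds and coreceptors 4, against 1.85% of all genes, and 0 fell in any of these (4, 4 and 6 rose and 0, 0 and 1 fell in the blocked fit). Frzb, a decoy that binds Wnts, stood at 6.09, 6.27 and 6.49 in wild type and 8.90, 8.29 and 8.71 in Norrin (5.1-fold higher, adjusted p = 7.91e-05; chromosome 2, 80411970 to 80447396 on GRCm38.p6), and its second probe set gave 2.20. Dkk1, which blocks Lrp5 and Lrp6 and is itself a beta-catenin target, stood at 6.34, 5.69 and 6.08 and 8.41, 7.26 and 7.79 (3.44-fold higher, adjusted p = 0.00326; chromosome 19, 30545876 to 30549496), with 1.06 by its second probe set. In both genes Norrin replicate 2 was the lowest Norrin pool, and the groups did not overlap, as in every called gene. The Wnt5a receptor Ror2 rose by 0.89 and was stable, and Fzd6, Fzd2, Fzd7, Rspo1, Wnt4 and Dkk3 rose by 0.94, 0.84, 0.77, 1.06, 1.00 and 0.56. Of 25 genes of beta-catenin, its TCF partners and feedback targets limma called 0 (6 at an unadjusted p under 0.05; 5 rose in the blocked fit), and the median was 0.24. The largest effects among them were 1.18 for Tnfrsf19 (adjusted p 0.0887) and 1.00 for Msx2 (0.0541; 0.05 by its second probe set), and the feedback inhibitor Axin2 had 0.37 (SE 0.18). The call depended on single arrays for Fzd6 (without Norrin 2, 3 or wild type 1, 3, adjusted p up to 0.0804), Fzd2 (without Norrin 1, 3 or wild type 2, 3, adjusted p up to 0.0769), Fzd7 (without Norrin 1 or wild type 2, adjusted p up to 0.0603), Rspo1 (without Norrin 1, 3 or wild type 2, 3, adjusted p up to 0.0905), Wnt4 (without Norrin 1, 2, 3 or wild type 2, 3, adjusted p up to 0.114) and Dkk3 (without Norrin 1, 2, 3 or wild type 2, 3, adjusted p up to 0.141).

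The 250 bases before the RefSeq start of Dkk1 and Frzb (GRCm38.p6, read along the gene) are shown because these are the antagonists with the largest effects; capitals mark the TCF/LEF core TCAAAG on either strand. The Dkk1 window lies on the minus strand at chr19:30549497-30549746 and that of Frzb on the minus strand at chr2:80447397-80447646.
Dkk1: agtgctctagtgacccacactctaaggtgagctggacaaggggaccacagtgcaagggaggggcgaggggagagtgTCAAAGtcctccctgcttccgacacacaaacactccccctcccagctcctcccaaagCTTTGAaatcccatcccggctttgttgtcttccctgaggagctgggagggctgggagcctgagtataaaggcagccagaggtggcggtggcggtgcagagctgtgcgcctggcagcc
Frzb: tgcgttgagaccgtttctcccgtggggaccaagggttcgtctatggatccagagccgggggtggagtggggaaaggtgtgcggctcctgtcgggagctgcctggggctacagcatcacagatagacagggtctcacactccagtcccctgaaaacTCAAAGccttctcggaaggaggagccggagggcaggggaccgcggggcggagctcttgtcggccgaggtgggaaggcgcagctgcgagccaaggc
Dkk1 held 2 matches, which begin 174 and 117 bases before the start, and Frzb 1, at 95 bases. The windows of Cyp26a1, Cebpa and Saa4 were also read for this core and held no match. A match was found in 35 of 253 higher genes with a listed promoter (13.8%), in 15.2% of lower genes and in 14.2% of all 14452 genes with one. The shares of risen and fallen genes were close to the background.

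Other signalling lists had 7.69% to 23.5% of their members called, against 4.07% of all genes. Of 23 retinoid genes 2 rose and 0 fell (2 and 2 in the blocked fit), with a median of -0.05: Cyp26a1, which degrades retinoic acid (7.49, 7.82 and 7.51 in wild type and 11.33, 10.19 and 10.46 in Norrin, 8.3-fold, adjusted p = 0.000422), and Rdh10, which makes its precursor (9.32, 8.46 and 9.05 and 10.98, 10.15 and 10.81, 3.25-fold). Of 26 genes of FGF signalling and its feedback 0 rose and 2 fell (1 and 3 in the blocked fit). The ETS factor Etv5, a target of FGF signalling, stood at 10.70, 9.85 and 10.32 in wild type and 8.42, 8.44 and 8.63 in Norrin (3.46-fold lower, adjusted p = 0.00372), with -1.26 and -1.46 by its other probe sets, and the ligand Fgf1 fell by 0.83. Of 26 BMP and TGF-beta genes 2 rose (7 rose and 1 fell in the blocked fit), the TGF-beta target Tgfbi by 1.41 and the ligand Tgfb3 by 0.51. Of 17 genes of the insulin-like growth factor system 4 rose and 0 fell (6 and 2 in the blocked fit); Igfbp3 stood at 8.49, 8.76 and 8.20 and 10.22, 10.10 and 10.02 (3.1-fold higher), Igfbp1 at 10.67, 11.61 and 10.95 and 13.37, 13.85 and 13.57, and Igfbp2 and the receptor substrate Irs1 rose by 0.92 and 0.95. Igfbp1 is also a product of decidua. The decidual list, given above by pool, was highest in Norrin replicate 3, and its part in the Igfbp1 values was not tested. Calls were lost in the leave-one-out fits for Fgf1 (without any 1 array, adjusted p up to 0.12), Tgfbi (without Norrin 2, 3 or wild type 1, 2, 3, adjusted p up to 0.084), Tgfb3 (without any 1 array, adjusted p up to 0.137), Igfbp1 (without any 1 array, adjusted p up to 0.141), Igfbp2 (without Norrin 1, 2 or wild type 2, 3, adjusted p up to 0.156) and Irs1 (without Norrin 1, 3 or wild type 1, 2, 3, adjusted p up to 0.121).

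Targets of YAP, a coactivator that responds to cell shape and tension, had the largest share of risen members among the 49 lists. It was 36.8%, against 1.85% of all genes. Of 19 measured 7 rose and 0 fell (12 and 0 in the blocked fit), 3 of them stable, with a median of 0.52. The matricellular genes Ccn2 and Ccn1 stood at 8.60, 8.82 and 8.07 and 8.52, 8.70 and 8.06 in wild type and 10.36, 11.22 and 10.75 and 9.71, 10.64 and 9.78 in Norrin, 4.85-fold and 3.06-fold higher (adjusted p = 0.00253 and 0.00294). The junction protein Amotl2, which restrains YAP, rose by 1.07 (SE 0.14), and Crim1, Ankrd1, the transcriptional partner Tead1 and the phosphatase Ptpn14 by 1.32, 1.16, 0.77 and 0.66. By pool the median member exceeded wild type by 0.77, 0.51 and 0.61 in Norrin replicates 1, 2 and 3. The part of the trophoblast signal of replicate 2 in these values was not tested. Ccn1 is also an immediate early gene. Leaving out 1 array ended the call of Crim1 (without Norrin 1, 2, 3 or wild type 1, 3, adjusted p up to 0.101), Ankrd1 (without Norrin 2, 3 or wild type 2, 3, adjusted p up to 0.0835), Tead1 (without Norrin 1, 3, adjusted p up to 0.0714) and Ptpn14 (without Norrin 1, 3 or wild type 1, 2, 3, adjusted p up to 0.14).

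Red cell genes were mostly lower where they changed, from the transcription factors to the membrane, and the lists of globin and haem synthesis and of the red cell membrane had the largest shares of fallen members among the 49. Of 23 genes of globin and haem synthesis 0 rose and 11 fell (1 and 15 in the blocked fit; 4 stable), of 29 red cell membrane genes 0 rose and 10 fell (2 and 17; 6 stable), and of 22 erythroid transcription factors 1 rose and 6 fell (2 and 12; 1 stable). Their fallen shares were 47.8%, 34.5% and 27.3%, against 2.22% of all genes, and their medians were -0.58, -0.73 and -0.50. The mitochondrial iron importer Slc25a37 stood at 10.33, 11.81 and 11.80 in wild type and 9.20, 9.13 and 9.32 in Norrin (4.28-fold lower, adjusted p = 0.00718). Wild type replicate 1 was the lowest wild type pool, and the Norrin pools lay close to one another. In haem synthesis the first enzyme Alas2 fell by 1.64, Alad by 1.01, Cpox by 0.88, Ppox by 0.63, Urod by 0.63 and Fech, which inserts the iron, by 0.98. Blvrb fell by 1.35. The embryonic globins Hba-x and Hbb-bh1 fell by 0.57 and 0.58 near the top of the scale. Klf1, the main erythroid activator, stood at 9.50, 9.24 and 10.46 and 8.26, 7.82 and 7.63 (3.56-fold lower, adjusted p = 0.00733), and Hemgn, Tal1, Nfe2, E2f2 and Sox6 fell by 2.08, 1.65, 1.17, 0.93 and 0.56, while Tfdp2, a partner of E2F factors, rose by 0.68 (0.15 to 0.40 by its other probe sets). In the membrane the blood group protein Rhd stood at 8.98, 9.82 and 10.27 and 8.21, 8.45 and 8.05 (2.73-fold lower), and Ermap, Dmtn, Icam4 and spectrin Sptb fell by 1.40, 1.36, 1.23 and 1.10, with smaller values by the other probe sets of Dmtn (-0.32 and -0.11) and Sptb (-0.11). Bpgm, which makes the regulator of haemoglobin's oxygen affinity, fell by 2.20 (SE 0.24).

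The wild type pools differed among themselves in the level of red cell genes. The median of the 29 membrane genes lay at -0.36, 0.05 and 0.41 around the wild type mean in wild type replicates 1, 2 and 3, and at -0.74, -0.79 and -0.80 in the Norrin pools. Every Norrin pool was thus below the lowest wild type pool, and the Norrin pools were closer to one another than the wild type pools were. Without wild type replicate 3, the highest, 4 genes of globin and haem synthesis were called in place of 11, and without Norrin replicate 3 6 membrane genes in place of 10. With 1 array left out, the call was lost for Alas2 (without Norrin 3 or wild type 2, 3, adjusted p up to 0.0605), Cpox (without Norrin 2, 3 or wild type 1, 3, adjusted p up to 0.0869), Ppox (without Norrin 2, 3 or wild type 1, 2, 3, adjusted p up to 0.162), Urod (without Norrin 1, 2, 3 or wild type 2, 3, adjusted p up to 0.0976), Hba-x (without Norrin 1, 3 or wild type 2, 3, adjusted p up to 0.101), Hbb-bh1 (without wild type 3, adjusted p 0.0503), Hemgn (without Norrin 1, 2, 3 or wild type 2, 3, adjusted p up to 0.078), Tal1 (without Norrin 1, 2, 3 or wild type 2, 3, adjusted p up to 0.097), Nfe2 (without Norrin 1, 2, 3 or wild type 2, 3, adjusted p up to 0.141), E2f2 (without Norrin 1, 2, 3 or wild type 2, 3, adjusted p up to 0.104), Sox6 (without Norrin 1, 2 or wild type 2, 3, adjusted p up to 0.0881) and Tfdp2 (without Norrin 1, 3 or wild type 1, adjusted p up to 0.0626). The gene Gata1 had an effect of -1.13 (adjusted p 0.111; 0.0159 in the blocked fit) and the anion exchanger Slc4a1 -1.63 (0.124; 0.00112).

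The promoters of Alas2 and Epb42, a membrane protein gene that fell by 1.51, are shown as examples of erythroid genes in which capitals mark AGATAA, a core bound by GATA factors, on either strand. The Alas2 window lies on the plus strand at chrX:150547167-150547416 and the Epb42 window on the minus strand at chr2:121036878-121037127.
Alas2: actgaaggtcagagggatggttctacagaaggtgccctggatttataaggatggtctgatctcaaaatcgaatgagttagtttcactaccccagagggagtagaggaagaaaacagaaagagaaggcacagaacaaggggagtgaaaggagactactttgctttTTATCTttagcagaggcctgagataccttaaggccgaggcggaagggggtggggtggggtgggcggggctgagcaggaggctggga
Epb42: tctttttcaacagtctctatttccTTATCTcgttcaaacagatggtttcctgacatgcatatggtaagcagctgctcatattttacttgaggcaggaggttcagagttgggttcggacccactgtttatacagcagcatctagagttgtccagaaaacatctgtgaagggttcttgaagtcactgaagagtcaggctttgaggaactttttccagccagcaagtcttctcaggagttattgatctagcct
The match begins 86 bases before the start in Alas2 and 226 bases before it in Epb42. The windows of Klf1, Hemgn and Bpgm were also read and held no match. Of the 22 fallen genes of the 3 erythroid lists with a listed promoter 9 held a match (40.9%), against 11.3% of all lower genes and 8.79% of all genes with a promoter. The TCF/LEF core was also more frequent in these 22, at 31.8% against 14.2% of all genes with a promoter. These are counts of letters and show no binding. The lists were made of known erythroid genes, so the GATA share may be partly fixed by how the lists were made. The share among list members that did not fall was not counted. Fits that left out 1 array ended the call for Epb42 (without Norrin 1, 3, adjusted p up to 0.0605).

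Other blood genes changed singly. The fallen shares were 12.5% for progenitor, megakaryocyte and platelet genes and 9.09% for iron genes, against 2.22% of all genes. Of 24 genes of progenitors, megakaryocytes and platelets 1 rose and 3 fell (1 and 6 in the blocked fit): the stem cell factor receptor Kit stood at 7.16, 7.02 and 7.48 in wild type and 8.81, 9.52 and 8.98 in Norrin (3.69-fold higher, adjusted p = 0.0033), and Vwf, Itga2b and Nfe2 fell by 0.92, 0.45 and 1.17. Outside the list, Rasgrp2, an activator of platelet integrins, stood at 9.69, 9.83 and 9.51 and 7.38, 7.27 and 7.39 (5.02-fold lower, adjusted p = 1.21e-05). The second probe set of Kit gave 1.10, and those of Rasgrp2 gave -0.51 to -2.31. The progenitor factor Runx1 had an effect of 0.04 (SE 0.18). Of 29 macrophage and myeloid genes 1 fell, the Fc receptor Fcgr3 (10.65, 10.36 and 10.51 and 7.61, 9.52 and 8.44), a share near the background, and of 22 iron genes 2 (2 rose and 4 fell in the blocked fit), the ferroxidase Heph by 2.38 and the transferrin receptor Tfrc by 0.93. Other probe sets of Tfrc gave -0.39 and -0.18. Not stable were Vwf (without Norrin 1, 2 or wild type 2, 3, adjusted p up to 0.0857), Itga2b (without any 1 array, adjusted p up to 0.181), Fcgr3 (without Norrin 3, adjusted p 0.053) and Tfrc (without Norrin 1, 2, 3 or wild type 2, 3, adjusted p up to 0.172).

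Endothelial genes moved in both directions around a median near 0. The risen and fallen shares were 5.88% and 11.8% for pan-endothelial genes and 7.69% and 3.85% for VEGF, angiopoietin and apelin signals. For arteries, veins and Notch both were 6.67%. Over all genes the shares were 1.85% and 2.22%. Of 34 pan-endothelial genes 2 rose and 4 fell (5 and 5 in the blocked fit), with a median of -0.03 that ran from -0.15 to 0.10 with 1 array left out. Flt1, the VEGF receptor that also acts as a trap, stood at 8.52, 8.54 and 8.66 in wild type and 10.10, 10.44 and 10.25 in Norrin (3.22-fold higher, adjusted p = 2.9e-05), and the adhesion receptor Adgrf5 rose by 0.97. The peptide receptor subunit Calcrl stood at 8.27, 8.70 and 8.96 and 6.25, 5.90 and 7.48 (4.28-fold lower, adjusted p = 0.0264), and the fenestral diaphragm protein Plvap fell by 0.99. Other probe sets of Calcrl gave -1.14 and -0.09. Vwf and Tal1, given with the blood genes, were the other fallen members. Of 26 genes of VEGF, angiopoietin and apelin signals 2 rose and 1 fell (5 and 2 in the blocked fit). These were Flt1, Calcrl and Adm. Adm, a ligand of Calcrl, rose by 1.61. Vegfa had an effect of 0.58 (adjusted p 0.184; 0.00674 in the blocked fit). The receptor Kdr had -0.18 (SE 0.24), the junction proteins Cdh5 and Pecam1 0.41 (SE 0.25) and 0.25 (SE 0.25), and Sox18 and Sox7, relatives of Sox17, 0.22 (SE 0.26) and 0.38 (SE 0.32), none of them called. Of 30 genes of arteries, veins and Notch 2 rose, Sox17 and the ephrin ligand Efnb2, by 2.97 and 0.62, and the connexin Gja4 and the Notch target Nrarp fell by 1.03 and 0.50 (4 rose and 3 fell in the blocked fit). The call depended on single arrays for Adgrf5 (without Norrin 2 or wild type 1, 2, 3, adjusted p up to 0.119), Calcrl (without Norrin 1, 2 or wild type 2, 3, adjusted p up to 0.0988), Plvap (without wild type 1, adjusted p 0.0511), Adm (without Norrin 2 or wild type 1, 3, adjusted p up to 0.0665), Efnb2 (without any 1 array, adjusted p up to 0.15), Gja4 (without Norrin 1, 3 or wild type 1, 3, adjusted p up to 0.137) and Nrarp (without Norrin 1, 2, 3 or wild type 2, 3, adjusted p up to 0.185).

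Few genes of the supporting tissue passed the test. Of 43 genes of mesenchyme and matrix 2 rose (17 rose and 1 fell in the blocked fit) and the median was 0.35. The risen share was 4.65%, against 1.85% of all genes. The receptor Pdgfra stood at 9.12, 9.59 and 9.56 in wild type and 11.38, 10.98 and 11.59 in Norrin (3.71-fold higher, adjusted p = 0.00651), with 2.03 and 1.71 by its other probe sets, and the protease inhibitor Timp3 rose by 1.75. Pdgfc, a ligand gene of Pdgfra outside the lists and chosen after its value was seen, rose by 1.09. Of 26 smooth muscle and pericyte genes 3 rose (7 in the blocked fit): the actin-binding Tagln by 1.42, smooth muscle actin Acta2 by 0.54 and the channel Kcnj8 by 0.57. The risen share of this list was 11.5%, against 1.85% of all genes. Calls were lost in the leave-one-out fits for Timp3 (without Norrin 1, 3 or wild type 3, adjusted p up to 0.0523), Tagln (without Norrin 1, 2, 3 or wild type 2, 3, adjusted p up to 0.0835), Acta2 (without any 1 array, adjusted p up to 0.0983) and Kcnj8 (without Norrin 1, 2, 3 or wild type 1, 3, adjusted p up to 0.175).

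**Figure D4:**
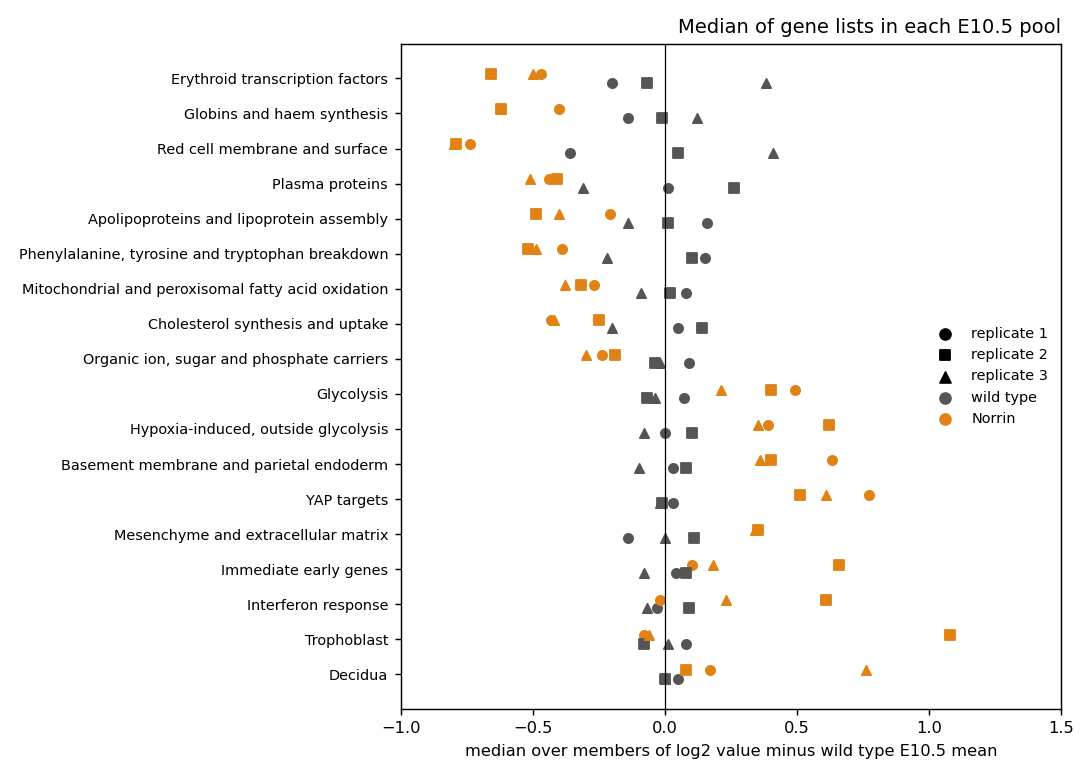
For 18 gene lists, the median over members of the log2 value minus the wild type E10.5 mean (x axis) in each wild type (grey) and Norrin (orange) pool, with the marker shape giving the replicate number. The 3 Norrin pools lie on 1 side of all wild type pools for the red cell, metabolic, hypoxia, basement membrane and YAP lists. Wild type replicate 3 comes near the Norrin pools for cholesterol genes (-0.2, against -0.43 to -0.25 in Norrin). It also does so for plasma proteins (-0.31, against -0.51 to -0.41). The immediate early, interferon and trophoblast lists are highest in Norrin replicate 2 and the decidual list in Norrin replicate 3.

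Genes induced by low oxygen were mostly higher where they changed, and 27.8% of them rose, against 1.85% of all genes. Of 36 hypoxia genes outside glycolysis 10 rose and 1 fell (20 and 1 in the blocked fit), 6 of the 11 stable, with a median of 0.51. P4ha1 and Plod2 are shared with the basement membrane list. Ddit4, an inhibitor of mTOR signalling, stood at 7.92, 8.76 and 7.69 in wild type and 10.47, 10.04 and 9.92 in Norrin (4.05-fold higher, adjusted p = 0.00095). Epas1, the HIF subunit of endothelium and other tissues, stood at 10.58, 10.62 and 10.63 and 12.69, 12.21 and 12.42 (3.55-fold higher, adjusted p = 0.00184), and its wild type pools were nearly equal (10.61 ± 0.03; SD, n = 3). Hif1a, another HIF subunit gene, had an effect of -0.14 (SE 0.27). The oxygen-sensing hydroxylases Egln3 and Egln1 rose by 1.99 and 0.54, the carbonic anhydrase Car12 by 1.09 and the demethylase Kdm3a by 0.94, and the selenium-binding Selenbp1 fell by 1.53. Second probe sets gave 1.21 for Egln3, and 0.08 and -0.20 for Car12. By pool the median member exceeded wild type by 0.39, 0.62 and 0.35 in Norrin replicates 1, 2 and 3. Without replicate 2, the highest, it was 0.46 and 7 genes were called. Leaving out 1 array ended the call of Egln1 (without Norrin 1, 2, 3 or wild type 2, 3, adjusted p up to 0.13), Kdm3a (without Norrin 1, 2, 3 or wild type 1, 3, adjusted p up to 0.166) and Selenbp1 (without Norrin 3, adjusted p 0.0573).

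The promoters of Ddit4 and Hk2 are shown with capitals marking ACGTG, the core bound by HIF, on either strand. The Ddit4 window lies on the minus strand at chr10:59951771-59952020 and the Hk2 window on the minus strand at chr6:82774455-82774704.
Ddit4: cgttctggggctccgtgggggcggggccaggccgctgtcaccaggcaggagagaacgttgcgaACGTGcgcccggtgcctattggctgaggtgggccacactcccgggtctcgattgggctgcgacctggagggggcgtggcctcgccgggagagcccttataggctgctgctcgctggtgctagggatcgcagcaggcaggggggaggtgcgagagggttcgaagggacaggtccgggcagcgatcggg
Hk2: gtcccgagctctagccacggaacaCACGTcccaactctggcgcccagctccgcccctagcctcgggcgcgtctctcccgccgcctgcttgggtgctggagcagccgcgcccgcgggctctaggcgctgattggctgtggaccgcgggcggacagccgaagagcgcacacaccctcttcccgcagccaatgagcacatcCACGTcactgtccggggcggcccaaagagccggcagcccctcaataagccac
The match begins 187 bases before the start in Ddit4, and the matches in Hk2 begin 226 and 52 bases before it. Of the 13 risen hypoxia and glycolysis genes with a listed promoter 9 held a match (69.2%), against 26.1% of all higher genes and 22.5% of all genes with a promoter. The hypoxia list was made of genes known to respond to HIF, so this share is partly fixed by how the list was made. The letters CCNCNCCC, read by KLF factors, were found in 73.9% of higher genes, 65.9% of lower genes and 62.8% of all.

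Of the immediate early genes 24.2% rose and of the interferon genes 13.8%, against 1.85% of all genes. Norrin replicate 2 was highest in both lists. Of 33 immediate early genes 8 rose and 0 fell (10 and 2 in the blocked fit), 4 of them stable; the median was 0.27, or 0.12 without Norrin replicate 2, where 8 genes were called, not all the same. Jun stood at 7.99, 8.38 and 8.16 in wild type and 10.18, 10.58 and 10.05 in Norrin (4.27-fold higher, adjusted p = 0.00177), with 1.25 by its second probe set, and the small GTPase Rhob at 10.34, 10.10 and 10.23 and 11.53, 11.43 and 11.41 (2.35-fold higher). Rhob was not highest in replicate 2. Egr1, Ier3, Klf6 and Jund rose by 2.03, 1.68, 1.02 and 0.62. A second probe set of Jund gave -0.11. Of 29 interferon genes 4 rose (8 in the blocked fit), 3 of them stable: Ifit1 stood at 5.71, 5.70 and 5.40 and 6.88, 8.38 and 8.05 (4.5-fold higher), Oasl2 at 5.04, 4.97 and 5.49 and 6.60, 8.01 and 6.63, and Ifit2 and Cxcl10 rose by 1.05 and 0.81. The interferon median was 0.27 and fell to 0.07 without Norrin replicate 2. With 1 array left out, the call was lost for Egr1 (without wild type 2, 3, adjusted p up to 0.062), Ier3 (without wild type 1, 3, adjusted p up to 0.0581), Klf6 (without Norrin 2, 3 or wild type 1, 3, adjusted p up to 0.118), Jund (without Norrin 3 or wild type 1, 3, adjusted p up to 0.0846) and Cxcl10 (without Norrin 2, 3 or wild type 1, 2, 3, adjusted p up to 0.101). The part of the trophoblast signal in these values was not tested.

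Growth and damage programmes gave little. Of 41 genes of cell cycle and DNA replication limma called 0 (5 at an unadjusted p under 0.05; 1 rose and 4 fell in the blocked fit), with a median of -0.09, and of 22 p53 targets 0 (5 at an unadjusted p under 0.05; 4 rose in the blocked fit), with a median of 0.10. Of 31 heat shock and unfolded protein genes 1 rose (2 in the blocked fit), Vldlr, given above with its probe sets, and the median was 0.03. That share of 3.23% is near the 1.85% of all genes. Of 33 imprinted genes 1 rose, the zinc finger gene Zim1, by 1.08, and 1 fell, Slc22a2 (7 and 2 in the blocked fit). Each is 3.03% of the list, near the 1.85% and 2.22% of all genes. Of 23 trophoblast genes limma called 0 (4 at an unadjusted p under 0.05; 1 rose in the blocked fit), and the median of 0.57 turned to -0.09 without Norrin replicate 2. Of 23 decidual genes 2 rose (5 in the blocked fit), Igfbp1 and Wnt4, both given above, and of 18 heart genes 1 (2 in the blocked fit), troponin Tnnc1, by 1.68. The risen shares were 8.7% and 5.56%, against 1.85% of all genes. Fits that left out 1 array ended the call for Tnnc1 (without Norrin 1, 3 or wild type 1, 3, adjusted p up to 0.099).

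Set beside E8.5, most genes called at E10.5 had an effect of the same sign but smaller. Of the 337 higher genes 272 had a positive effect at E8.5 (80.7%, against 46.1% of all genes), with median effects of 0.21 and then 0.92. Of the 404 lower genes 330 had a negative one (81.7%, against 53.9%), with medians of -0.23 and -0.98. The 2 comparisons share no array, and since the genes were chosen by their effect at E10.5, a smaller value at E8.5 is partly fixed by that choice. Limma called 14 genes at E8.5 (0.077%), of which 8 were higher and 2 lower in the same direction at E10.5. The difference of the effects was itself called for 17 genes (0.0934%), of which 7 were among the higher and 10 among the lower genes. The effect on Cebpa was -0.40 at the earlier and -2.99 at the later stage (interaction adjusted p 0.0677), Pga5 0.10 and 3.53 (0.0586), and Klf1 -0.47 and -1.83 (0.43). Sox17 and Cyp26a1 had nearly their full effect at E8.5, at 2.71 and 2.54.

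**Figure D5:**
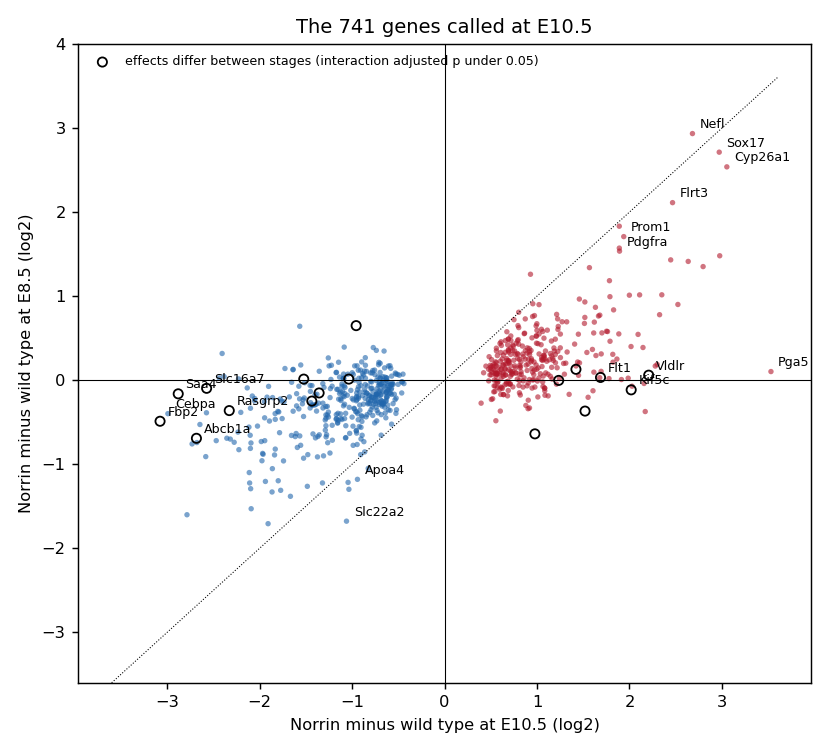
The Norrin minus wild type difference at E10.5 (x axis, log2) and at E8.5 (y axis, log2) of the 741 genes called at E10.5, red where higher and blue where lower; the dotted line marks equal effects and black circles the genes whose effects differed between the stages (interaction adjusted p under 0.05). Nefl, Sox17, Cyp26a1 and Flrt3 lie near the line of equal effects, and Saa4, Fbp2, Slc16a7, Flt1, Vldlr and Kif5c lie near 0 at E8.5.

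Second measurements of the same genes gave mostly the same direction. Their values are printed above for some genes only. Of the 741 called genes 391 had at least 1 other probe set, and 638 of these 699 probe sets had an effect of the same sign. Of the 242 whose level reached the median of all genes 238 had the same sign and 187 gave at least 70% of the change.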

How the data were processed

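Total RNA of 12 pools was hybridised to 12 arrays. The authors deposited log2 expression values; the submitters' processing notes give RMA as the method, without a version. The number of arrays limits the precision. Of 45101 probe sets 34945 had 1 gene in the platform annotation, 932 several and 9160 none here; the latter groups and 64 controls were left out. The probe set with the highest mean over 12 arrays stood for a gene, which left 18193 genes. Each stage appears to have been normalized on its own, so levels were compared within a stage. Linear models of limma 3.58.1 (R 4.3.3, with lmFit, then contrasts.fit and eBayes) fitted 1 mean per group over 12 arrays. Two-sided p-values were adjusted by Benjamini-Hochberg over all genes. Adjusted p-values in the text are from this fit unless given for the blocked fit or for a fit that left out 1 array. The script was tested on simulated data.

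Nothing says whether litters, days or batches were shared. Same-numbered Norrin and wild type pools deviated together from their group means (r = 0.506, 0.209 and 0.219 at E10.5). Pools of different numbers had r from -0.347 to 0.156. The labels state no pairing, so the main fit, which makes the calls, has no block. The blocked fit takes the replicate numbers as pairs and is given beside it where it changes a call or a count. Its pairing was read from these same data. The p-values measure the spread between pools.

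The genes to describe and the 49 gene lists were chosen with earlier results of these data known, so counts over lists are descriptions. Names were drawn from the receptor genes, the 25 called genes with the largest change per direction and the 10 with the smallest adjusted p. The 25 were taken where the higher group mean reached the median level of 7.68. This rule also took up to 5 called members per list and direction (or the 2 largest effects where a list had none). Not every gene of the rule is named, and Retreg1, Sesn3, Emb, Dnajc6, Gsta3 and Kel are among those left out. Of these, Dnajc6 kept its call in 6, Emb in 3, Kel in 2 and Gsta3 in 1 of the 6 leave-one-out fits. Other named genes are said to be chosen after their values were seen or complete a count of list members. Promoter sequences are from RefSeq on GRCm38.p6, matched by symbol for 14452 of 18193 genes.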

Additional observations from a re-analysis of the deposited data

Results flagged for a closer look

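For 10 of the genes named above the Norrin effect at E10.5 differed from that at E8.5 by the interaction term of the limma model (E10.5 effect minus E8.5 effect, log2, with Benjamini-Hochberg adjustment over all genes). The stages appear to have been normalized separately, which leaves each effect within its stage. Among lower genes the difference was -2.72 for Saa4 (adjusted p = 0.000339), -2.48 for Slc16a7 (0.00145), -1.97 for Rasgrp2 (0.00301), -1.99 for Abcb1a (0.0261), -2.59 for Fbp2 (0.0326) and -1.05 for Cpt2 (0.0463). Among higher genes it was 1.65 for Flt1 (0.00301), 1.29 for Gulo (0.0174), 2.13 for Kif5c (0.0223) and 2.15 for Vldlr (0.0372). The E8.5 effects of these 10 genes ran from -0.69 for Abcb1a to 0.13 for Gulo. Other probe sets of Kif5c gave effects at E10.5 of 0.00 to 0.69, against 2.02 for the one used.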

How the results depend on the processing

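The count of 741 genes called rose to 2400 with the replicate block within each stage, to 2004 with the replicate block on the 6 E10.5 arrays alone and to 2316 with array weights; the cause was not tested. These fits shared 741, 723 and 736 genes with the 741. The 6 E10.5 arrays alone called 765 genes, of which 563 were among the 741. Leaving out 1 array gave 353 to 580 genes, with fewer samples in the fit. Under the other alternatives the count ran from 609 (the probe set with the largest variance) to 932 (quantile normalization of all 12 arrays together). Over all settings the share of higher genes ran from 36.3% (without wild type replicate 3) to 52.3% (array weights). The blocked fit lost no call; where it changed the count over a list, both counts are printed. The median of a list changed sign under some alternative for aquaporins, arterial, FGF, pan-endothelial, heat shock and cell cycle genes, with main medians between -0.12 and 0.03, and for trophoblast genes without Norrin replicate 2. Between stages no level is compared, and probe sets near 14.78, the top of the scale, can understate a change.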

Other observations

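Beyond the lists, several stable calls concerned carnitine, choline, bile acid and lysine metabolism, and they were chosen after their values were seen. Bbox1, the last enzyme of carnitine synthesis, stood at 8.18, 9.25 and 8.30 in wild type and 6.78, 6.77 and 6.89 in Norrin (effect -1.76, SE 0.22, adjusted p = 0.0014). The peroxisomal reductase Pecr stood at 11.22, 11.16 and 10.62 and 9.39, 9.42 and 8.98 (adjusted p = 0.0014), and the mitochondrial acetate-activating enzyme Acss1 fell by 1.80. Hsd3b7, which acts early in bile acid synthesis, fell by 1.08 (adjusted p = 0.00646), as did the bile acid receptor gene Nr1h4 described above. In each of these genes the 3 Norrin pools lay below the 3 wild type pools. The groups were likewise apart in each of the 741 called genes and in 22.9% of all genes tested.

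On the higher side the sulfotransferase Chst15, which modifies chondroitin sulfate, stood at 9.15, 9.25 and 9.14 in wild type and 11.19, 10.66 and 10.99 in Norrin (adjusted p = 0.00107), and the glycosyltransferase B4galnt2 rose by 1.78. The adhesion molecule Cadm1 rose by 1.21, the B cell adaptor Blnk by 1.79 and the calcineurin inhibitor Rcan2 by 1.89.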
